A study of Mus musculus with 2 samples.

Results

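Transcripts of 10 immediate-early genes, Fos, Fosb, Jun, Junb, Atf3, Egr1, Egr2, Egr3, Ier2 and Ier3, were followed across 6 cell types of the newborn mouse ovary. They were taken by symbol from the 31057 genes of the count matrices, and all 10 were found in both libraries. Cells were assigned to a type by UMIs of a few marker genes, where a UMI (unique molecular identifier) stands for a single captured transcript. A level, in counts per 1000000 UMIs of all genes (CPM), is taken over the summed UMIs of the cells of a type in a library. A share is the percentage of cells with at least 1 UMI of a gene after every cell was thinned at random to 2000 UMIs, so that types of different depth are read at the same depth. Cells with fewer than 2000 UMIs were left out of the thinned values.

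CD1 pups gave their whole ovaries at postnatal day 2, and single cells were captured with 10x Genomics 3′ chemistry. There was 1 group of 2 libraries (n = 2), called replicate 1 and replicate 2, each pooled from 6 ovaries of 3 pups of a single female, so the libraries and not the cells are the replicates. The tissue was held in Collagenase IV for 30 min at 37 °C and then in Accumax for 5 min before capture. There was no treatment, transgene or mutant, and no sample kept from dissociation, so transcripts present in the tissue and transcripts gained while the cells were separated cannot be told apart.

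Immediate-early genes are switched on without new protein synthesis, by kinases that act on transcription factors already bound at their promoters, such as SRF with its ternary complex partners and CREB. Their mRNAs are short-lived, and most of them encode transcription factors that pass a brief stimulus on to later genes. In the ovary they are known for the response of granulosa cells to gonadotropins, and in many tissues they rise when cells are separated with enzymes at body temperature.

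Replicate 1 held 4094 cells with 54471790 UMIs and replicate 2 held 4847 cells with 59074480 UMIs, and 21 cell barcodes occurred in both. A limit of 500 genes and 10% mitochondrial UMIs left 3738 and 4464 of them. The marker gate, in which at least 2 UMIs and at least 80% of the marker UMIs of a cell had to come from a single type, took 1574 and 480 granulosa cells (Foxl2, Fst, Wnt6), 1429 and 2545 interstitial cells (Col1a2, Dcn), 55 and 16 endothelial cells (Cdh5), 45 and 45 perivascular cells (Rgs5) and 240 and 631 germ cells (Ddx4, Dazl, Ooep). It took only 5 and 11 mesothelial cells (Upk3b), since cells with Upk3b also carried UMIs of the granulosa and interstitial lists. A second gate, in which Upk3b was read first, took 175 and 245 mesothelial cells. For these cells the granulosa and interstitial lists were left out of the marker total, so cells that also hold such transcripts can be among them. This second gate was added after the cell numbers of the marker gate were seen. It is called the Upk3b-first gate, and the levels and shares below are from it. In every type, the list of check markers that no gate used was higher than in any other type, from 1003 CPM for the mesothelial list to 10776 for the germ list. Haemoglobin genes and Alas2, markers of red blood cells, summed to 31.2 CPM in interstitial cells of replicate 1 and 1472 in those of replicate 2. Immune markers summed to 65.2 and 44.0 in interstitial cells and were below these levels in the other types except in endothelial cells of replicate 2 (52.2, from 1 of 7 genes). The perivascular cells also held 831 and 790 CPM of the interstitial check list. The part of these cells and transcripts in the results was not tested.

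As a part of all UMIs, the 10 transcripts were far more abundant in somatic cells than in germ cells. They summed to 9172 and 9502 CPM in interstitial cells (replicates 1 and 2), 9115 and 5545 in granulosa cells, and 6271 and 8140 in perivascular cells. In mesothelial cells they summed to 5063 and 5681, in endothelial cells to 4938 and 2643, and in germ cells to 158 and 333. Germ cells were lowest in both libraries, by 31.2-fold against the lowest somatic type in replicate 1 and by 7.93-fold in replicate 2. These folds are per UMI, and germ cells were the deepest. Their median depth was 77878.5 and 50766 UMIs, against 4299 to 14502 in the somatic types. Without thinning, germ cells held a mean of 11.4 and 14.2 UMIs of the 10 genes per cell. The gap was therefore smaller per cell than per UMI. Granulosa cells of replicate 2 lay closer to mesothelial than to interstitial cells, so the order of the somatic types was not the same in both libraries. A 3′ count takes a transcript once whatever its length, so levels of different genes are set side by side here as molecules.

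**Figure D1:**
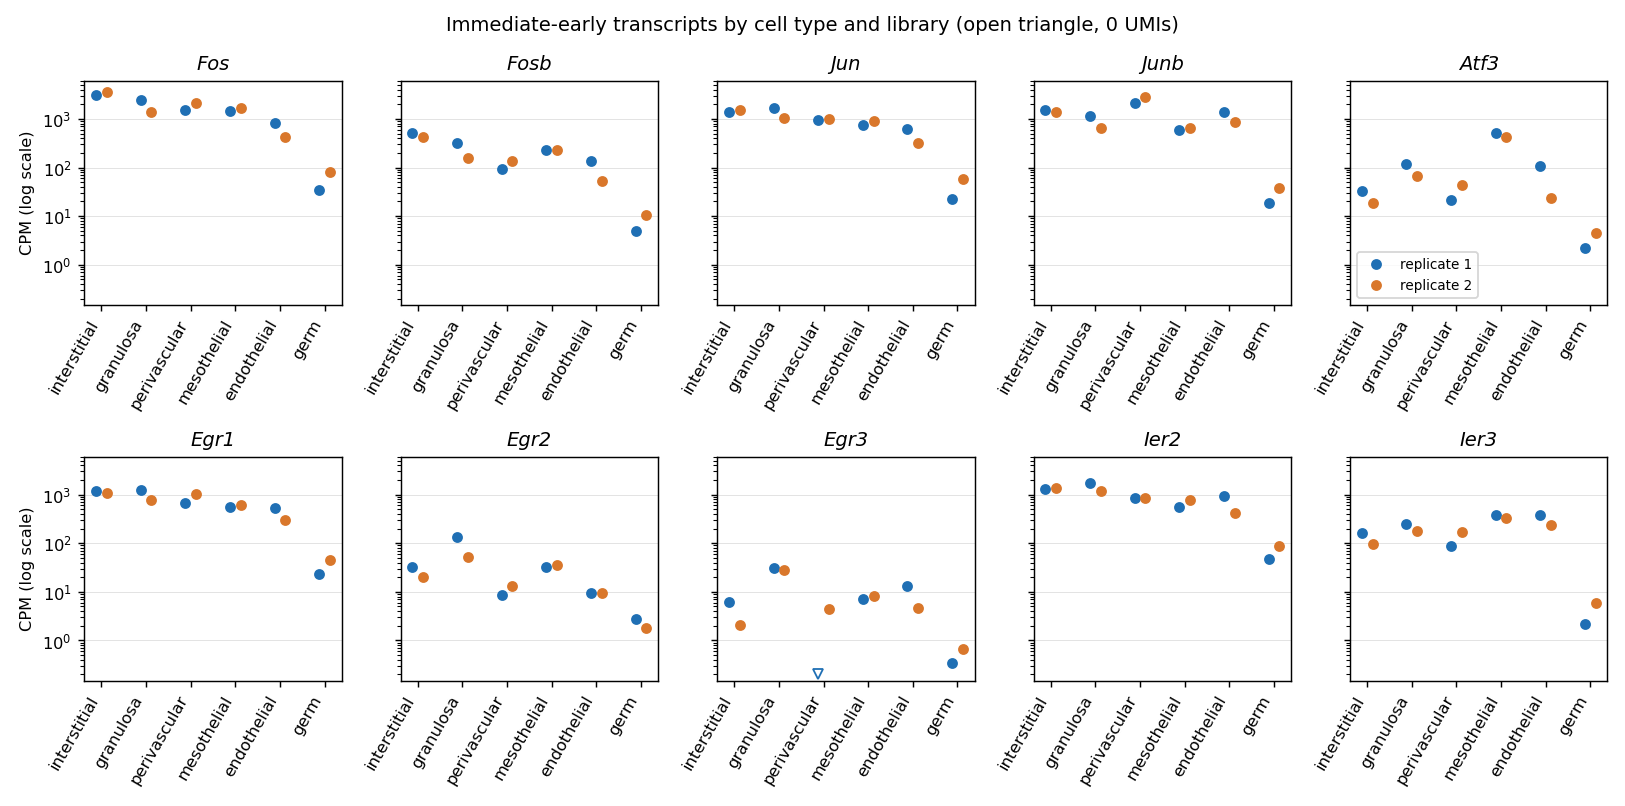
Level of each gene in CPM (log axis) in 6 cell types, as points for replicate 1 and replicate 2, with an open triangle where no UMI was counted (Egr3 in perivascular cells of replicate 1). Germ cells lie below the somatic types in both libraries for every gene except Egr3, Atf3 stands highest in mesothelial cells, and Egr2 and Egr3 stand highest in granulosa cells.

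Summed counts were tested with edgeR's quasi-likelihood test and Benjamini-Hochberg adjustment over all genes tested, and a gene was called when its adjusted p was under 0.05 and its change over 2-fold. Against the mean of the other 5 types under the marker gate, germ cells had 9 of the 10 transcripts called lower, where 12.9% of 13706 genes were called lower and 35.5% higher. The log2 fold change was -5.44 for Ier3 (standard error 0.44), -5.05 for Junb (0.40), -4.51 for Fos (0.41), -4.45 for Atf3 (0.46), -4.29 for Fosb (0.41), -4.26 for Jun (0.40), -4.13 for Egr1 (0.40), -3.48 for Ier2 (0.34) and -3.21 for Egr2 (0.59). The median over the 10 genes was -4.27, where the median over all genes tested was 0.71. Egr3 was not called under the marker gate, in which the few mesothelial cells held 0 of its UMIs. Under the Upk3b-first gate its value was -3.64 (standard error 1.06, adjusted p = 0.0078), and all 10 were called lower, where 19.1% of 14350 genes were. Egr2 was not called with every cell thinned to 2000 UMIs (adjusted p = 1.00).

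Each somatic type, set against a mean that holds the germ cells, was called higher for some of the genes. Granulosa cells had 9 of 10 called higher, where 15.4% of all genes were called higher, with Junb as the exception, and interstitial cells had 6 of 10 (Fosb, Fos, Jun, Egr1, Junb and Ier2), where the share over all genes was 14.2%. Perivascular cells had 3 of 10 called higher (Junb, Fos, Egr1; 6.37% of all genes), endothelial cells 2 (Ier3, Junb; 9.5%) and mesothelial cells 2 (Atf3, Ier3; 1.6%). The only gene called lower in a somatic type was Atf3 in interstitial cells, by 1.09 (adjusted p = 0.043), where 2.01% of all genes were called lower, and it was not called under the Upk3b-first gate (adjusted p = 0.069) and was -0.63 without replicate 2. Under the Upk3b-first gate only Junb was called in perivascular cells and only Ier3 in endothelial cells, whereas 4 were called in mesothelial cells (Atf3, Ier3, Egr2, Fosb). The share over all genes is not given for these contrasts. In mesothelial cells the median log2 fold change of all genes also moved, from -0.82 under the marker gate to 0.11 under the Upk3b-first gate. Without replicate 1, 5 of the granulosa genes were past 2-fold and Junb in endothelial cells was at 0.69, and without replicate 2, Fos and Egr1 in perivascular cells were at 0.96 and 0.67. Because the germ cells in the reference lift every somatic type, each somatic type was also set against the other 4 somatic types under the Upk3b-first gate, which was chosen after the first results were seen and is used below.

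Fos, Fosb, Jun and Junb encode the bZIP proteins that pair as the AP-1 transcription factor. The Fos proteins bind DNA only in a pair with a Jun protein, and Jun proteins can also pair with each other. Windows of 250 bases before an annotated start were found for 7 of the 10 genes in RefSeq (GRCm38.p6), and they are shown so that the letters a CREB or SRF site would need can be seen. Capitals mark matches on either strand to the half-site TGACG of the cAMP response element (its reverse complement is CGTCA), to the octamer TGACNTCA, to the AP-1 site TGACTCA or to the CArG box bound by SRF. TGACG lies within TGACNTCA where the N is G. In all, 17.8% of 32851 promoter windows of the same length hold TGACG, 7.49% TGACNTCA, 4.46% TGACTCA and 1.47% a CArG box. The windows are at chr12:85473640-85473889 (plus strand) for Fos, chr4:95052223-95052472 (minus) for Jun, chr8:84978749-84978998 (minus) for Junb, chr7:19310046-19310295 (minus) for Fosb, chr17:35821463-35821712 (plus) for Ier3, chr1:191183334-191183583 (minus) for Atf3 and chr10:67537619-67537868 (plus) for Egr2. Egr2 has 5 windows, and the one shown is among 3 overlapping ones that hold the most matches, while of the others 1 holds a CArG box and 1 no match. A match is a description of the letters and not a bound site.
Fos: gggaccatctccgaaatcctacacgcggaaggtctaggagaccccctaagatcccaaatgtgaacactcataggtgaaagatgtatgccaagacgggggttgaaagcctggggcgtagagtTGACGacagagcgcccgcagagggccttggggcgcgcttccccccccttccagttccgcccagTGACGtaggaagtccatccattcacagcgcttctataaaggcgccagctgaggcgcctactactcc
Jun: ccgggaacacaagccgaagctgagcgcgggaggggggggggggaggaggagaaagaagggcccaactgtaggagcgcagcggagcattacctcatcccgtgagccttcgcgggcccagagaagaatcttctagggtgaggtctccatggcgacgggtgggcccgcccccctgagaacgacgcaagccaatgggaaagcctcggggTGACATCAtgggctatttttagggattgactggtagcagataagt
Junb: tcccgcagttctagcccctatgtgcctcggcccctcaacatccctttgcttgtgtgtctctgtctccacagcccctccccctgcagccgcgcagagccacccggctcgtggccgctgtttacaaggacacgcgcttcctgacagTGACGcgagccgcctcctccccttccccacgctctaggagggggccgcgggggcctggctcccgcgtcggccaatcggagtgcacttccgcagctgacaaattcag
Fosb: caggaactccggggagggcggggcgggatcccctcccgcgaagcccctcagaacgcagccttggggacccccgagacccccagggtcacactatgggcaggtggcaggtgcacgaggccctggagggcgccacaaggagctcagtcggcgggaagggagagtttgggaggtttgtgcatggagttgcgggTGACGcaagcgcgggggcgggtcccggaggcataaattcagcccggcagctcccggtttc
Atf3: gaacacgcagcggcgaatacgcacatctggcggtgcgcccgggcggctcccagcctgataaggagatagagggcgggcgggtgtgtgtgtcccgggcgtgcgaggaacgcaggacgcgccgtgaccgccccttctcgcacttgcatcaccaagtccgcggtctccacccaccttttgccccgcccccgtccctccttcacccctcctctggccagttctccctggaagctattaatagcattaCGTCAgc
Egr2: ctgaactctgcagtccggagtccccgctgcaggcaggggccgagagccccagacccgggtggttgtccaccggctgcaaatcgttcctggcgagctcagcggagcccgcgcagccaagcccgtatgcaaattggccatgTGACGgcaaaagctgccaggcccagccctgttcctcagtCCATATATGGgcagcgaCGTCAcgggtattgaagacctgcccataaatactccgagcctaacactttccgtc
Ier3: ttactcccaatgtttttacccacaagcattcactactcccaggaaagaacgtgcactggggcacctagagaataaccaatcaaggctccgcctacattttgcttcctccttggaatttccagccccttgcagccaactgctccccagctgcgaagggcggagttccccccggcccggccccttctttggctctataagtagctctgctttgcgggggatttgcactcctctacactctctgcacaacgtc

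The Fos window holds 2 half-sites, which start 129 and 66 bases before the start, and the Jun window holds the octamer 45 bases before it. The Junb half-site begins 106 bases, the Fosb half-site 60 bases and the Atf3 half-site 7 bases before the start, and the Ier3 window holds no match. The Atf3 window and the Egr2 window shown belong to starts inside the genes, which begin at bases 191218039 (minus strand) and 67535475 (plus strand). The Ier3 and Fosb windows also run past the gene starts, at bases 35821684 (plus strand) and 19310051 (minus strand). The Egr2 window is the only one shown with a CArG box, 72 bases before the start, between 2 half-sites. Sequence beyond the windows was not searched, so a CArG box farther from the start of Fos or another gene would be missed.

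Fos (ENSMUSG00000021250) was the most abundant of the 10 transcripts in interstitial, granulosa and mesothelial cells. Its level was 3049 and 3571 CPM in interstitial cells, 2492 and 1418 in granulosa cells, 1501 and 2145 in perivascular cells, 1450 and 1710 in mesothelial cells, 814 and 422 in endothelial cells, and 34.0 and 82.1 in germ cells. Interstitial cells were highest and endothelial cells lowest among the somatic types in both libraries, and the libraries of these types did not overlap. In the order of the means, mesothelial cells were above endothelial cells by a log2 difference of 1.38 (adjusted p = 0.035) and endothelial above germ cells by 3.32 (adjusted p = 5.06e-05), whereas the steps from interstitial to granulosa, perivascular and mesothelial cells did not pass the test. Against the other somatic types, the log2 fold change of Fos was 1.33 ± 0.30 in interstitial cells (± standard error, here and below; adjusted p = 0.0057) and -1.70 ± 0.37 in endothelial cells (adjusted p = 0.0070).

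Fosb, which encodes a close relative of Fos, was less abundant than Fos in every type, and it too was highest in interstitial cells. It was counted at 512 and 421 CPM in interstitial cells, 321 and 160 in granulosa cells, 228 and 228 in mesothelial cells, 91.9 and 133 in perivascular cells, 133 and 52.2 in endothelial cells, and 4.86 and 10.6 in germ cells. Interstitial cells stood above every other type in both libraries, and their level was higher than that of the other somatic types by 1.61 ± 0.30 on the log2 scale (adjusted p = 0.0016). At 2000 UMIs per cell, 51.6% and 50.9% of interstitial cells held a Fosb UMI against 33.9% and 21.4% of granulosa cells, and without thinning the shares were 75.4% and 75.1% against 66.1% and 51.1%.

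Jun (ENSMUSG00000052684) was spread more evenly. It was counted at 1413 and 1534 CPM in interstitial cells, 1641 and 1021 in granulosa cells, 928 and 995 in perivascular cells, 752 and 922 in mesothelial cells, 632 and 323 in endothelial cells, and 23.0 and 59.3 in germ cells. No neighbouring somatic types differed by the test, and interstitial and granulosa cells overlapped. Endothelial cells were lower than the other somatic types (log2 fold change -1.17 ± 0.36, adjusted p = 0.041), and the value was -0.74 without replicate 2.

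Junb (ENSMUSG00000052837), which encodes a Jun protein that can restrain Jun itself, had another order. It was counted at 2101 and 2771 CPM in perivascular cells, 1515 and 1414 in interstitial cells, 1386 and 849 in endothelial cells, 1170 and 644 in granulosa cells, 597 and 646 in mesothelial cells, and 18.4 and 37.5 in germ cells. Perivascular cells, the contractile cells around capillaries, were highest in both libraries and held 1 Junb UMI or more in 86.7% and 86.0% of cells at equal depth. Against the other somatic types Junb was higher in perivascular cells (log2 fold change 1.16 ± 0.27, adjusted p = 0.019) and lower in mesothelial cells (-1.06 ± 0.30, adjusted p = 0.024). Without replicate 2 the perivascular value was 0.89, and without replicate 1 the mesothelial value was -0.77. Junb made up 28.1% and 32.1% of the UMIs of the 10 genes in endothelial cells and 33.5% and 34.0% in perivascular cells, against 11.2% to 16.5% in the other types.

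Atf3 (ENSMUSG00000026628), a bZIP factor of stress responses that often acts as a repressor, differed most between somatic types. It was counted at 504 and 431 CPM in mesothelial cells, 117 and 66.0 in granulosa cells, 107 and 23.7 in endothelial cells, 21.9 and 44.4 in perivascular cells, 33.5 and 18.2 in interstitial cells, and 2.20 and 4.43 in germ cells. Mesothelial cells, the epithelium that covers the ovary, were above every other type, and their libraries did not overlap with any of the others. At 2000 UMIs per cell, 45.1% and 47.3% of mesothelial cells held an Atf3 UMI, against 14.8% and 8.97% of granulosa cells and 5.15% and 2.98% of interstitial cells. Without thinning these shares were 78.3% and 76.7%, 40.4% and 31.1%, and 12.2% and 7.3%. Against the other somatic types Atf3 was higher in mesothelial cells (log2 fold change 3.31 ± 0.32, adjusted p = 1.26e-05) and lower in interstitial cells (-1.95 ± 0.43, adjusted p = 0.0049). The 5 and 11 mesothelial cells of the marker gate gave 3.77 (adjusted p = 3.8e-04).

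**Figure D2:**
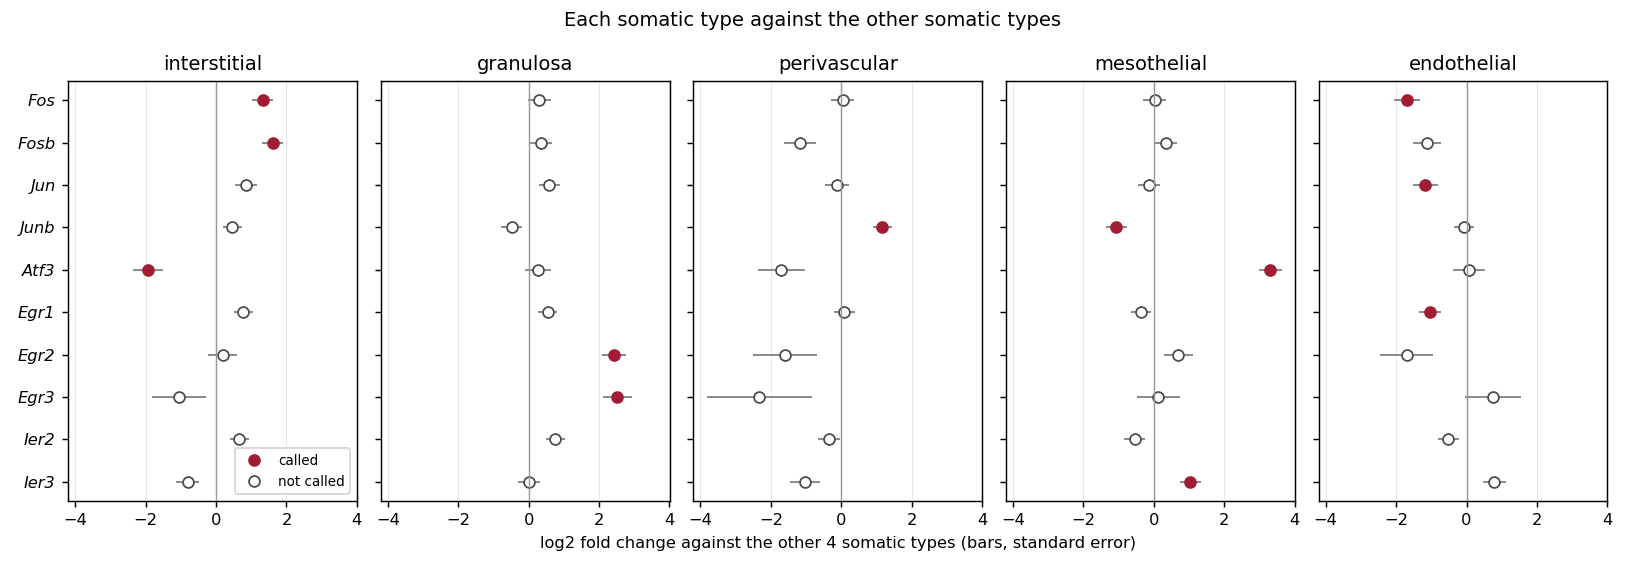
Log2 fold change of each gene in a somatic type against the mean of the other 4 somatic types (x axis, bars show the standard error), with filled points for genes called by edgeR. Interstitial cells are called for Fos, Fosb and Atf3, granulosa cells for Egr2 and Egr3, perivascular cells for Junb, mesothelial cells for Atf3, Ier3 and Junb, and endothelial cells for Fos, Jun and Egr1.

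The Egr genes encode zinc-finger transcription factors that share a DNA site and are held in check by the corepressors Nab1 and Nab2. Egr1 (ENSMUSG00000038418) was abundant in all somatic types, whereas Egr2 (ENSMUSG00000037868) and Egr3 (ENSMUSG00000033730) were low outside granulosa cells. Egr1 was counted at 1164 and 1056 CPM in interstitial cells, 1267 and 768 in granulosa cells, 683 and 1021 in perivascular cells, 550 and 604 in mesothelial cells, 519 and 294 in endothelial cells, and 23.5 and 44.8 in germ cells. Granulosa cells overlapped with both interstitial and perivascular cells, and no neighbouring somatic types differed by the test. Endothelial cells were lower than the other somatic types (log2 fold change -1.03 ± 0.31, adjusted p = 0.038), a call that was lost with the marker gate (-0.88, adjusted p = 0.11), and the value was -0.64 without replicate 2.

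Egr2 was counted at 137 and 52.0 CPM in granulosa cells, 33.05 and 35.6 in mesothelial cells, 32.7 and 20.4 in interstitial cells, 8.75 and 13.3 in perivascular cells, 9.37 and 9.49 in endothelial cells, and 2.72 and 1.83 in germ cells. Granulosa cells were highest in both libraries but differed 2.63-fold between them. The step from granulosa to mesothelial cells passed the test (log2 difference 1.39, adjusted p = 0.015), and none of the steps below it did. Against the other somatic types the log2 fold change in granulosa cells was 2.42 ± 0.34 (adjusted p = 1.8e-04). The share of granulosa cells with an Egr2 UMI at equal depth was 20.2% in replicate 1 (exact 95% binomial interval 18.2% to 22.3%, which covers counting error only) and 8.76% in replicate 2 (6.36% to 11.7%). In interstitial cells it was 5.01% (3.93% to 6.28%) and 4.19% (3.43% to 5.05%), so granulosa cells were higher in each library. Unthinned, the shares were 49.2% and 26.1% in granulosa cells and 15.02% and 10.1% in interstitial cells.

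Egr3 was the scarcest of the 10, with 31.5 and 28.8 CPM in granulosa cells, 12.9 and 4.74 in endothelial cells, 6.99 and 8.06 in mesothelial cells, 6.25 and 2.04 in interstitial cells, and 0.347 and 0.670 in germ cells. Perivascular cells held 0 Egr3 UMIs in replicate 1, where the exact 95% upper limit was 16.1 CPM, and 1 UMI in replicate 2. Granulosa cells were above every other type in both libraries, and unlike the other genes Egr3 differed little between the libraries in these cells (ratio 1.09). The log2 fold change of granulosa cells against the other somatic types was 2.51 ± 0.41 (adjusted p = 5.5e-04), while the step down to endothelial cells, which rest on 11 UMIs and 1 UMI, was not significant (adjusted p = 0.12).

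Ier2 and Ier3 encode small proteins outside the bZIP and zinc-finger families. Ier2 (ENSMUSG00000053560), a nuclear protein, was counted at 1697 and 1211 CPM in granulosa cells, 1289 and 1368 in interstitial cells, 849 and 844 in perivascular cells, 948 and 422 in endothelial cells, 568 and 769 in mesothelial cells, and 47.2 and 86.3 in germ cells. No neighbouring somatic types differed by the test and it was not called in any somatic type against the others. In germ cells Ier2 was the most abundant of the 10 transcripts and made up 29.8% and 25.9% of their UMIs, against 10.4% to 21.8% in the somatic types. In replicate 2 its lead over Fos was small (86.3 against 82.1 CPM). Among the germ cells of that library at or below their median depth, Fos was higher (87.8 against 76.5 CPM).

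Ier3 (ENSMUSG00000003541), which is known as a regulator of cell survival, was highest in the mesothelial and endothelial cells. It was counted at 375 and 328 CPM in mesothelial cells, 377 and 242 in endothelial cells, 243 and 176 in granulosa cells, 87.5 and 169 in perivascular cells, 159 and 96.7 in interstitial cells, and 2.14 and 5.77 in germ cells. Mesothelial and endothelial cells overlapped, and the log2 difference between them was 0.20 (standard error 0.40, adjusted p = 0.77). Against the other somatic types Ier3 was called in mesothelial cells alone, at 1.04 ± 0.30 on the log2 scale (adjusted p = 0.023), and this was lost with the marker gate (0.84, adjusted p = 0.49).

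By counts, the calls against the other somatic types were few. Granulosa cells had 2 of 10 higher, where 13.3% of 14350 genes were called higher. Interstitial cells had 2 higher and 1 lower, where the shares over all genes were 10.9% and 3.07%, and mesothelial cells had 2 higher and 1 lower, beside 11% and 3.9%. Endothelial cells had 3 lower beside 6.01%, and perivascular cells 1 higher beside 4.29%. The median log2 fold change of the 10 genes and that of all genes were 0.44 and 0.21 in granulosa cells, 0.56 and 0.24 in interstitial cells, 0.07 and 0.15 in mesothelial cells, -0.77 and -0.14 in endothelial cells, and -0.69 and -0.28 in perivascular cells. Fos, Junb and Atf3 were each called in a pair of types, higher in one and lower in the other, and each of the other called genes in a single type.

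Granulosa and interstitial cells, the 2 most numerous somatic types, were also compared directly under the marker gate. Egr3 was higher in granulosa cells by a log2 difference of 2.88 (standard error 0.42, adjusted p = 1.1e-04), Egr2 by 1.82 (0.34, adjusted p = 6.6e-04) and Atf3 by 1.77 (0.40, adjusted p = 0.0028). These 3 of 10 compare with 14.3% of all genes called higher in granulosa cells, and none of the 10 was called higher in interstitial cells, where 12.6% of all genes were. Fosb came closest, lower in granulosa cells by 0.99 (0.37, adjusted p = 0.0496), and Jun, Egr1 and Ier2 differed by -0.18 to 0.09 with standard errors from 0.33 to 0.37.

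**Figure D3:**
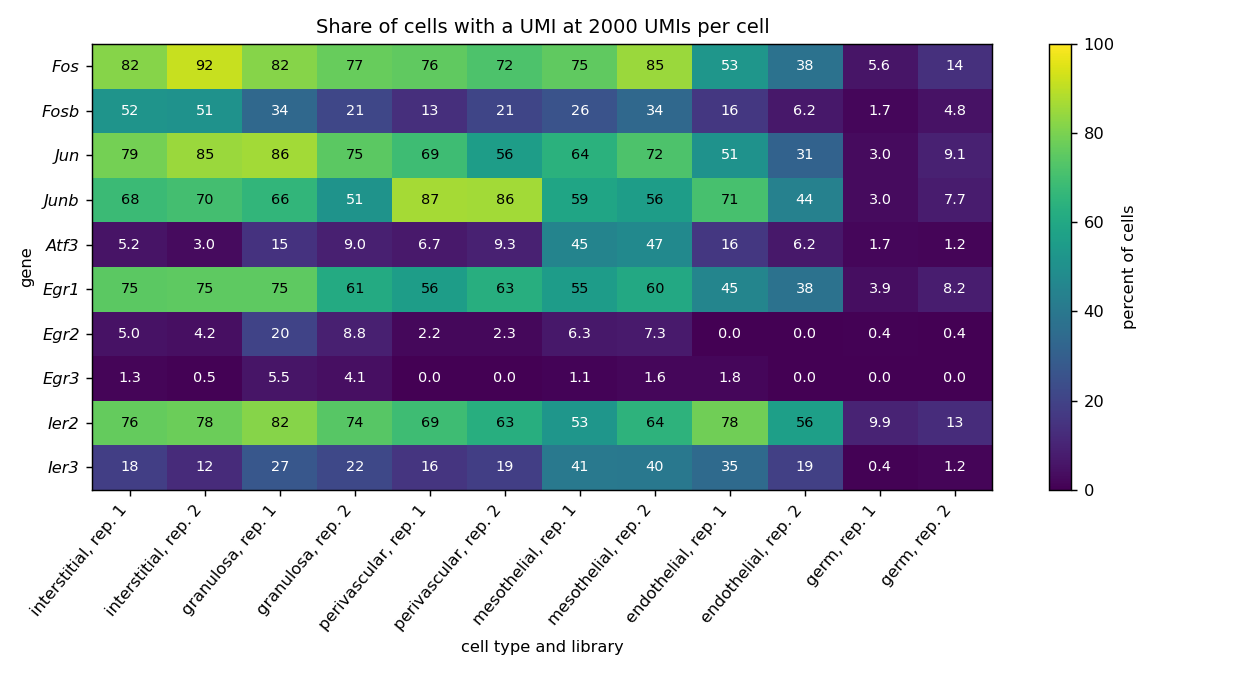
Percentage of cells with at least 1 UMI of each gene (rows) in each cell type and library (columns) after thinning to 2000 UMIs. Cells with fewer UMIs were left out, and colour runs from 0 to 100%. Fos, Jun, Egr1, Ier2 and Junb were found in most interstitial and granulosa cells, Atf3 in 45.1% and 47.3% of mesothelial cells, and no gene in more than 14.1% of germ cells.

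Single cells of most somatic types held several of the 10 transcripts at once, and the amount per cell varied widely. At 2000 UMIs per cell, the median interstitial cell held 15 and 18 UMIs of the 10 genes (10th to 90th percentile 2 to 39 and 4 to 42), and the median granulosa cell 15 and 9 (3 to 37 and 2 to 25). Mesothelial cells held a median of 10 and 10, perivascular cells 10 and 10, endothelial cells 7 and 3 and germ cells 0 and 0. At this depth no UMI of any of the 10 was found in 3.51% and 3.42% of granulosa cells, 4.23% and 2.58% of interstitial cells, and 76.0% and 68.3% of germ cells. The germ cells deep enough to be thinned were 233 of 240 and 562 of 631. At least 5 of the genes were found together in 63.2% and 41.5% of granulosa cells and in 60.7% and 62.1% of interstitial cells, 53.1% and 58.0% of mesothelial cells, 37.8% and 41.9% of perivascular cells, and 38.2% and 18.8% of endothelial cells, against 0% and 1.42% of germ cells. Endothelial cells of replicate 2, of which there were 16, held a median of 2 of the genes.

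**Figure D4:**
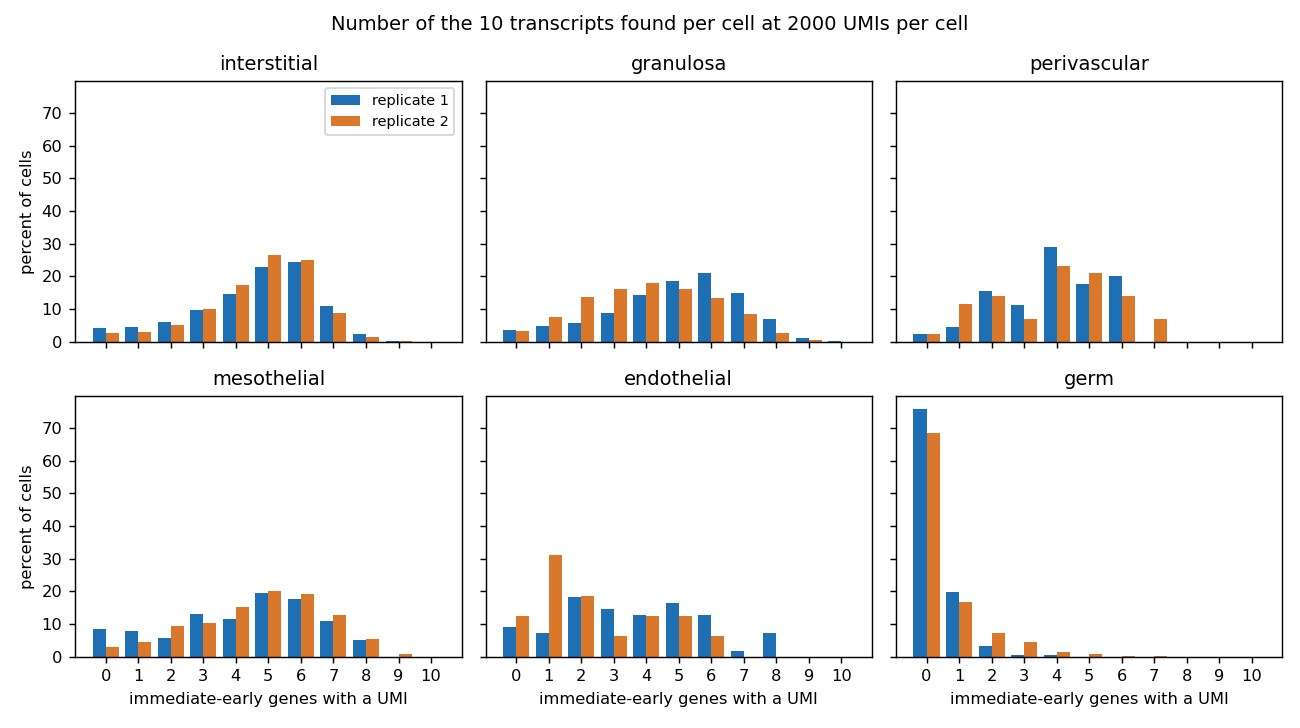
Distribution of the number of immediate-early genes (of 10) with a UMI per cell at 2000 UMIs per cell, as percent of the cells of a type, with bars for replicate 1 and replicate 2. Interstitial cells peak at 5 and 6 genes in both libraries, granulosa cells peak at 6 genes in replicate 1 and 4 in replicate 2, and germ cells peak at 0.

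Granulosa and interstitial cells with a Fos UMI held Jun, Junb, Egr1 and Ier2 more often than cells of the same type and library without one. In granulosa cells, Junb was found in 75.0% and 59.3% of cells with Fos and in 25.6% and 25.7% of cells without it, and Jun in 91.2% and 78.6% against 63.9% and 62.4%. In interstitial cells Egr1 was found in 81.7% and 79.5% of cells with Fos and in 43.4% and 27.9% of those without, and Ier2 in 83.7% and 81.4% against 43.4% and 34.3%. Among germ cells of replicate 2, the 79 cells with Fos held Jun in 34.2% and the 483 cells without it in 4.97%. In replicate 1 only 13 germ cells held Fos, with Jun in 7.69% of them against 2.73% of the 220 others and Egr1 in 0% against 4.09%. These cells share a library and were thinned to the same depth, so the shares are given as a description with no test.

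Granulosa cells carried more of the 10 transcripts in replicate 1 than in replicate 2, and all 10 genes shared this direction, though not its size. The ratio of replicate 1 to replicate 2 ran from 1.09 (Egr3) to 2.63 (Egr2) with a median of 1.70, where the ratio over all genes had a median of 1.03 and a 5th to 95th percentile range of 0.683 to 1.43. In endothelial cells 9 of 10 were also higher in replicate 1 (median ratio 1.94), but the range over all genes was wide there, from 0.433 to 3.34. The direction was the other way in germ cells, where 9 of 10 were higher in replicate 2 (median ratio 0.494, all genes 0.503 to 1.26), and in perivascular cells, where 9 ratios had a median of 0.690, again within a wide range over all genes (0.303 to 2.44). Mesothelial cells (median 0.917) and interstitial cells (1.16) differed less. Germ cells with no UMI of another type's gate markers summed to 90.9 and 105 CPM in replicates 1 and 2. Those with some such UMI summed to 185 and 387, so the difference between the libraries was mainly in the latter. The libraries also differed in the number of granulosa cells gated and in the median mitochondrial share of these cells, 4.14% in replicate 1 and 4.81% in replicate 2 under the marker gate. With 1 pool of pups per library, pups, dissociation and capture cannot be told apart, and the difference was not tested.

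**Figure D5:**
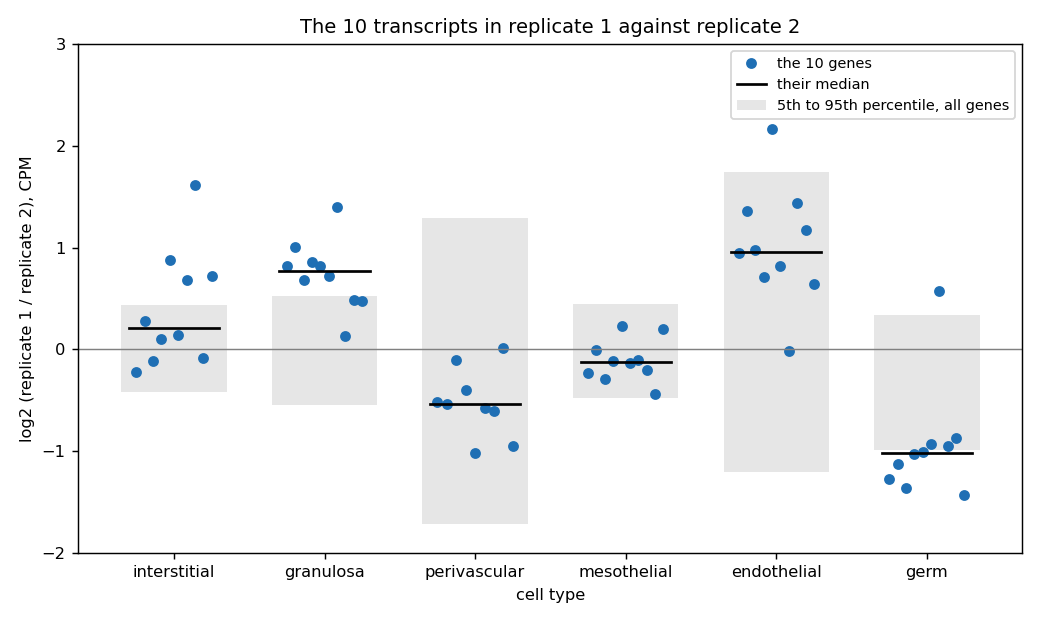
Ratio of the level in replicate 1 to that in replicate 2 (log2 axis) for the 10 genes by cell type, with their median as a line and the 5th to 95th percentile of all genes as a grey bar; Egr3 is left out in perivascular cells, where it had 0 UMIs in replicate 1. The genes lie above 0 in granulosa cells, mostly above 0 in endothelial cells, and mostly below 0 in germ and perivascular cells.

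Germ cells held the 10 transcripts at 1.73% and 3.51% of the summed level of interstitial cells. Fos stood at 1.12% and 2.30% of its highest somatic level, Ier2 at 2.78% and 6.31%, Ier3 at 0.568% and 1.76%, and Junb at 0.876% and 1.35%. Markers of other types, read in the same germ cells as a measure of transcripts from elsewhere, stood at 1.04% and 3.96% of their own level for the 5 granulosa check genes, at 0.276% and 0.669% for the 4 interstitial check genes, and at or below 0.401% for the mesothelial, endothelial and perivascular check genes. The summed share of the 10 transcripts in germ cells was above that of the granulosa markers in replicate 1 and below it in replicate 2, and above that of the other lists in both. Transcripts made by germ cells and transcripts carried over from other cells cannot be told apart in these counts.

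Germ cells with no UMI of the other gate lists, 88 and 234 of the 240 and 631, held less. Their summed level of the 10 genes was 90.9 and 105 CPM, against 185 and 387 in the germ cells with some such UMI. The 88 cells of replicate 1 had a median of 60963 UMIs, whereas the 234 cells of replicate 2 had a median of 4514, below the 50766 of all germ cells there. Against the other types, 9 of the 10 genes were called lower with these germ cells alone. The share of all genes called lower was not taken for this fit, so the count has no background beside it. In replicate 1 the germ cells above and below their median depth had levels of 159 and 158 CPM, and in replicate 2 of 335 and 325.

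Other genes of the same response were read from lists of further immediate-early genes, other AP-1 and MAF genes, feedback inhibitors, upstream kinases and factors, and heat-shock genes. Under the marker gate, germ cells had 19 of the 25 further immediate-early genes tested called lower and 1 higher, 15 of 20 feedback inhibitors lower and 1 higher, and 5 of 9 AP-1 and MAF genes lower. The median log2 fold changes of these 3 lists were -3.27, -2.28 and -1.64. These counts stand beside 12.9% of all genes called lower, 35.5% higher and a median of 0.71. For upstream kinases and factors and for heat-shock genes the balance of calls turned with the gate, while the median of each list kept its sign. Of all genes, 19.1% were called lower under the Upk3b-first gate, and the share called higher is not given. Under the marker gate 2 of 16 upstream genes were called lower and 3 higher, and 3 of 11 heat-shock genes lower and 4 higher (medians 0.13 and -0.37), whereas under the Upk3b-first gate these were 4 lower and 1 higher, and 4 lower and 3 higher (medians 0.06 and -0.61, all genes 0.31). Nr4a1, an orphan nuclear receptor induced with Fos, had 4.34 and 11.2 CPM in germ cells against 119 to 648 in the other types. Dusp1, a phosphatase that switches off MAP kinases, had 3.99 and 10.6 against 140 to 661, and Socs3, an inhibitor of cytokine signals, had 1.504 and 6.26 against 71.8 to 573. Under the marker gate, the log2 fold change was -4.63 for Maff, a small MAF factor, -5.07 for Myc and -4.53 for the heat-shock gene Hspa1a. Among upstream genes it was -3.44 for Elk3, 2.86 for Mapk9 and 2.73 for Mkl2, and the lowest level in another type was 0 CPM for each. Under the Upk3b-first gate Mapk9 had 34.2 and 30.1 CPM in germ cells, against 14.0 to 31.1 in the other types. Mkl2 had 30.5 and 30.3 in germ cells, below the 65.6 and 47.4 of endothelial cells.

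Among the somatic types, under the Upk3b-first gate, perivascular cells had 5 of 20 feedback inhibitors and 5 of 25 further immediate-early genes called higher, beside the 4.29% of all genes. Spry2 and Spry4, which restrain receptor tyrosine kinase signals, had 271 and 306 and 70.0 and 53.3 CPM there, with log2 fold changes of 2.52 (adjusted p = 3.3e-04) and 3.05 (adjusted p = 0.0015). Gadd45b, a growth-arrest gene, had 643 and 595 (log2 fold change 2.29, adjusted p = 8.7e-06). Hspa1a was the only one of 11 heat-shock genes called higher in perivascular cells (1.84, adjusted p = 0.032).

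Endothelial cells had 4 of 25 further immediate-early genes called higher and 3 lower, and 5 of 16 upstream kinases and factors higher, beside 7.67% of all genes higher and 6.01% lower. Elk3, a ternary complex partner of SRF, had 344 and 365 CPM in endothelial cells, a log2 fold change of 4.25 (adjusted p = 1.2e-09), and the phosphatase gene Dusp2 had 119 and 109 (5.63, adjusted p = 6.6e-05). Sgk1, a stress-responsive kinase gene, was higher by 3.29 and Cyr61, which encodes a secreted matrix protein, fell by 2.17.

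Granulosa cells had 6 of 25 further immediate-early genes called higher and 4 lower, where 13.3% of all genes were higher and 5.53% lower. Arc, best known from neurons, was higher by 3.89 (16.8 and 10.6 CPM). The other somatic types reached up to 6.04 CPM of Arc, and perivascular cells held 0 in both libraries, so its reference mean includes a type without Arc. Nr4a2, at 4.86 and 3.58 CPM, was lower by 2.54. Its levels were high only in the small endothelial (45.7 and 47.4) and perivascular (43.8 and 142) gates. Interstitial cells were also called lower for Nr4a2, by 1.78. Mafk, a small MAF factor, was higher by 1.93, and Dusp1 fell by 1.29. Interstitial cells had 4 of these 25 higher and 2 lower, beside the 10.9% and 3.07% of all genes. Socs3, at 476 and 573 CPM, was higher there by 1.93 (adjusted p = 8.1e-04). In mesothelial cells 3 were called higher and 2 lower, beside the 11% and 3.9% of all genes. The small heat-shock gene Hspb1, at 370 and 303 CPM, was higher by 3.41 (adjusted p = 4.9e-06).

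The genes whose profile over the 12 sums of type and library was most like that of the 10 genes summed, among 6429 genes with a mean of at least 20 CPM under the marker gate, were led by Nedd4 (Pearson r of log2 levels 0.988), Zfp36 (0.984), App (0.980) and Irf2bpl (0.977). Zfp36 encodes an RNA-binding protein that shortens the life of AU-rich mRNAs and is itself an early-response gene. The 12 points share 2 libraries, and much of the likeness is the step between germ and somatic cells: over the 10 somatic sums the same correlations were 0.847, 0.764, 0.717 and 0.747. Under the Upk3b-first gate the first places went to Cox20 (0.992), Zfp36 (0.991) and Nedd4 (0.987), Irf2bpl was sixth, and App was not among the first 10, so the ranking depends on the gate. No test was made of the correlations.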

How the data were processed

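The authors prepared the libraries with 10x Genomics 3′ reagents (version 2 per the labels, version 3 in the methods) and deposited raw UMI counts per gene and called cell from Cell Ranger 3.0.2 on GRCm38, per the submitters' processing notes. No other normalization was applied. The 10 genes, the further gene lists and the markers were chosen with earlier results of these data known.

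Cells passed at 500 genes and 10% mitochondrial UMIs (3738 and 4464 cells), and 7076 entered the marker gate (at least 2 UMIs and 80% of gate UMIs, the interstitial list left out of the perivascular total). In the Upk3b-first gate the granulosa and interstitial lists were left out of the mesothelial total, and this label replaced any earlier one. No doublet caller was run, so cells that hold UMIs of other gate lists can be present in a gate, as in 152 of 240 and 397 of 631 germ cells. Counts were summed per library and type, and edgeR 4.0.16 (R 4.3.3) was run on the 12 sums with TMM scaling after filterByExpr, using the quasi-likelihood test and Benjamini-Hochberg adjustment over all genes tested. A gene was called at adjusted p under 0.05 and log2 fold change over 1. The fit was tested on simulated data. Thinning, exact binomial (shares) and exact Poisson (levels) 95% intervals used numpy 2.4.6 and scipy 1.17.1. PCR duplicates are removed by UMIs, and intervals cover counting error only. The labels call the libraries biological replicates.

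Besides the 10 genes, the text could name at most 3 genes per list and type, those of largest change among genes called and changed the same way in both libraries, and the 10 genes closest in profile. Both libraries gave every type, so types within a library share their pups, and deviations of same-library sums correlated by -0.11 to 0.38 over 15 pairs of types and 3509 genes, so the library was added as a block in an alternative. Other alternatives changed scaling, filter, test (DESeq2 1.42.0), depth, gate and mitochondrial limit, or left out a library. Promoter windows and gene identifiers were taken from RefSeq and GENCODE M21 tables.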

Additional observations from a re-analysis of the deposited data

Results flagged for a closer look

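Cells that fell in no gate, 390 in replicate 1 (10.4% of the cells kept) and 736 in replicate 2 (16.5%), entered no comparison. They were flagged because the 10 transcripts passed a floor of 3 UMIs in these cells (0.548 and 0.362 CPM). That floor is low and does not set these cells apart from the gated ones. The 10 genes summed to 6376 CPM in these cells of replicate 1 and to 5508 in those of replicate 2. Both values lay within the range of the somatic types under the marker gate, 4938 to 9162 in replicate 1 and 2643 to 9491 in replicate 2. Most of them, 329 and 557 cells, held markers of more than 1 type, and 41 and 61 held no marker UMI. With Upk3b read first, 230 and 511 cells stayed outside the gates, with 8010 and 5222 CPM.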

How the results depend on the processing

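Against the mean of all other types, the counts of called genes stayed within 1.5 times of the reported ones in germ cells (9 reported) and interstitial cells (7) under every alternative run. In mesothelial cells (2 reported) the count was 1 with thinned cells, with a stricter gate and without the deepest 5% of cells, and 4 with the Upk3b-first gate. In endothelial (2) and perivascular cells (3) it was 1 with the Upk3b-first gate. A single library gives no test, so values without a replicate count fold changes over 2 alone: they ran from 5 (without replicate 1) to 10 in granulosa cells (9 reported), 3 to 5 in mesothelial cells, 4 to 5 in endothelial cells, 4 to 5 in perivascular cells and 104 to 113 over the pairwise contrasts (70 reported). Against the other somatic types they ran from 3 to 6 in interstitial cells (3 reported), 4 to 7 in endothelial cells (3) and 2 to 5 in perivascular cells (1). No called gene changed direction in these alternatives. The cause of the moves was not tested, except that counts without a replicate need no p. No share over all genes is given beside the counts of this section, so they show only how the calls for the 10 genes moved.

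With the replicate block, the count was 9 in granulosa, 7 in interstitial, 2 in mesothelial, 2 in endothelial, 3 in perivascular and 9 in germ cells, as without it, 80 over the pairwise contrasts, and 4 in endothelial cells against the other somatic types; no gene called against the other types without the block was lost with it. The smallest gates (16 endothelial cells in replicate 2, 45 perivascular cells in each library) limit what could be called, and a gene not called there is not shown to be equal.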
